A study of Mus musculus with 8 samples.

Results

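Cytochrome P450 genes were examined in mouse small-intestinal organoids in which the crypt transcription factors Ascl2 and Tcf7l2 had been altered. The members were all genes whose array name is Cyp followed by a family number, a subfamily letter and a gene number. The array held 75 such genes on 107 probes, of 28146 named genes on 41174 probes. A gene was kept for testing if a probe was well above background, as called by the scanner software, in either colour on at least 2 of the 8 arrays. This kept 63 of the 75 P450 genes, of 19141 genes in all.

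P450 enzymes are haem proteins of the endoplasmic reticulum and mitochondria that insert an oxygen atom into lipid-soluble molecules, with electrons passed on by the reductase Por, by cytochrome b5 or by ferredoxin. Members of the Cyp1, Cyp2 and Cyp3 families oxidise drugs, plant compounds, steroids and fatty acids, Cyp4 enzymes hydroxylate fatty acids and eicosanoids, and families with higher numbers act on sterols, bile acids, vitamin D and retinoic acid. In the small intestine the drug-oxidising enzymes are mostly a property of mature absorptive cells, and the nuclear receptors Pxr (Nr1i2) and Car (Nr1i3) and the dioxin receptor Ahr are known to control many of them.

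Organoids, epithelial structures with crypts grown in culture, were profiled on 8 Agilent 2-colour arrays, each with an organoid RNA (own RNA) against a control RNA, after a 16 h pulse of 4OH-tamoxifen in every culture. In experiment 1, organoids transduced with Ascl2 under a CMV promoter, with RNA taken after 24 h, were set against VillinCreERT2 organoids on 2 arrays, with the dyes swapped on replicate 2. In experiment 2, Tcf7l2null organoids, Tcf7l2null organoids overexpressing Ascl2 and Ascl2-overexpressing organoids had 1 array each against organoids transduced with dsGFP, so these 3 arrays share a control. In experiment 3, Ascl2null organoids had 1 array against VillinCreERT2 organoids. Experiments 2 and 3 each added a self-self array with the control RNA in both colours, which shows how far a ratio moves with no difference in RNA; for that of experiment 3 the labels name VillinCreERT2 in one field and Ascl2loxp/loxp in another. The tamoxifen pulse acts through a Cre recombinase that the villin promoter drives in the epithelium, and whether cultures were pooled is not stated in the labels.

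All values are log2 ratios of own RNA over control, as the mean over a gene's probes, so -1 is a 2-fold lower and 1 a 2-fold higher level than in the control. The Ascl2 probe gave -0.31 and 0.12 in experiment 1, -0.72 with overexpression in experiment 2, -0.93 on the Tcf7l2null array with Ascl2 overexpression and -1.07 on the Ascl2null array. It was thus not higher on the arrays labelled as overexpressing Ascl2, and the Tcf7l2 probes lay between -0.34 and 0.18 on both Tcf7l2null arrays. The sources used here do not give which parts of these genes the construct carries or the deletion removes. The probes therefore cannot serve as a check, and every direction below rests on the labels. Enterocyte markers passed the filter in 15 of 15 cases, as did 8 of 8 goblet, 8 of 8 stem cell and 8 of 8 Paneth markers on the array. Across arrays, 50.1% to 67.4% of spots were well above background, no spot was saturated, and the small number of arrays limits the precision.

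Most of the drug-oxidising P450 families were measurable in these organoids, while several P450 enzymes of steroid and bile acid synthesis were at or near background. In both colours of all 8 arrays, 40 members were well above background: 4 of 5 Cyp3a genes, 9 of 11 Cyp2c, 6 of 7 Cyp2d, 7 of 12 Cyp4 and 9 of 21 further Cyp2 genes, but 0 of 3 Cyp1 genes and 5 of 16 genes of the other families. Another 11 members were not well above background in any of the 16 channels. These were Cyp1b1, Cyp2a5, Cyp2a12, Cyp2ab1, Cyp2f2, Cyp4a29, Cyp4a31, Cyp7b1 and Cyp8b1 of bile acid synthesis, Cyp11b2 of aldosterone synthesis and Cyp19a1, the aromatase. Cyp7a1, the rate-limiting enzyme of bile acid synthesis in the liver, was above background in 3 of 16 channels and Cyp11a1, which starts steroid synthesis, in 1. The other members not measured throughout were above background in 2 to 15 channels, and the widest bound for a member detected in 1 colour of an array was at least 1.97-fold, for Cyp4f15 on the Tcf7l2null array with Ascl2 overexpression.

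**Figure D1:**
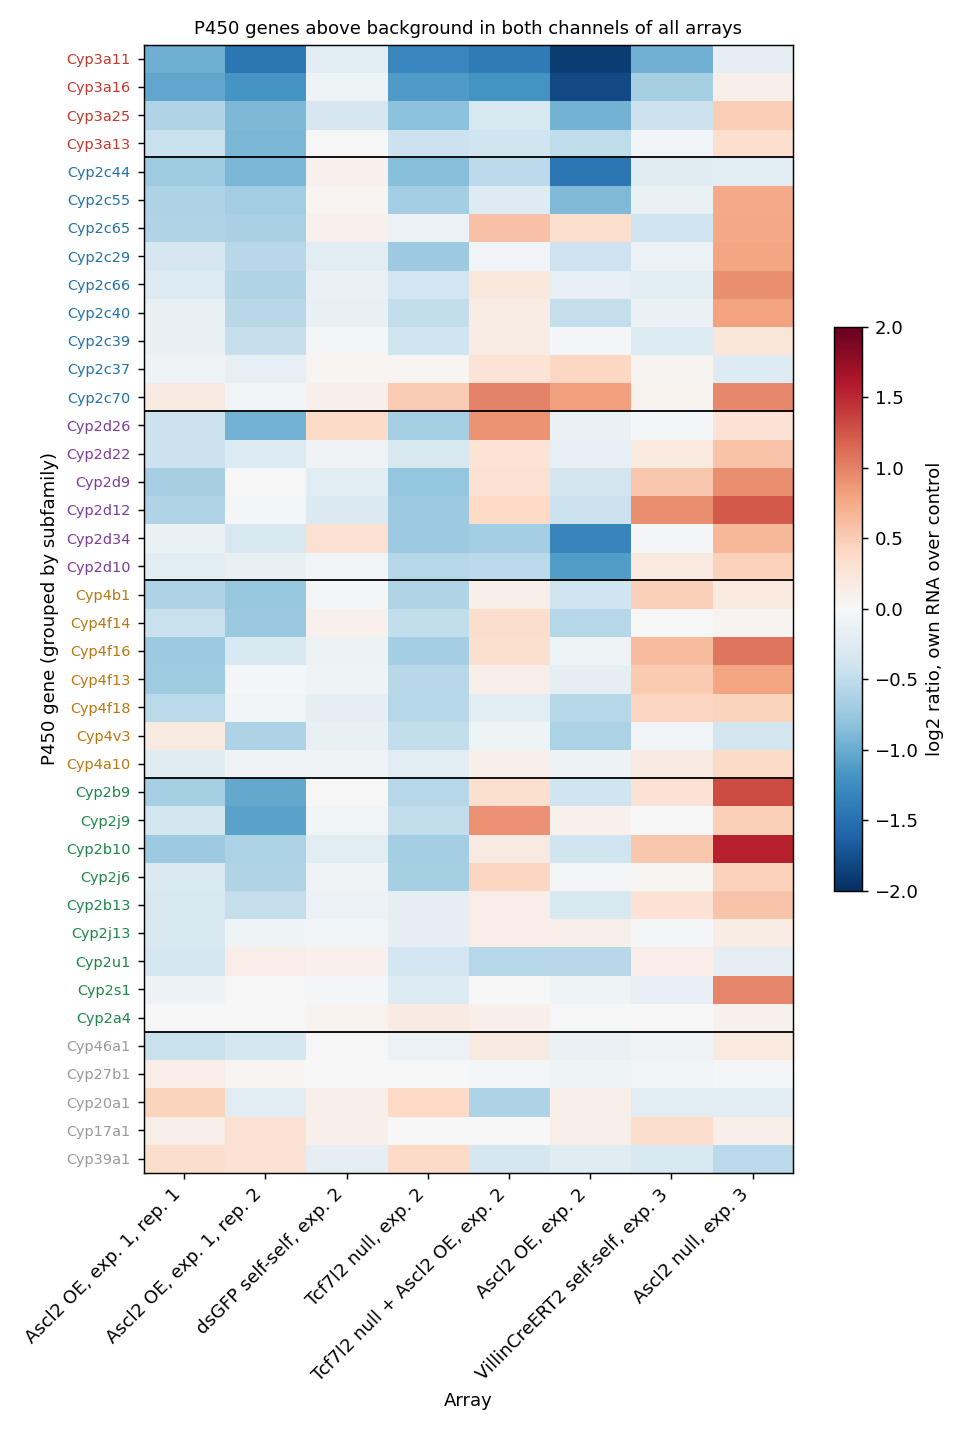
Log2 ratios of own RNA over control (colour, from -2 to 2) for the 40 P450 genes well above background in both channels of all 8 arrays (rows, grouped by subfamily and ordered by their mean in experiment 1) on each array (columns; OE, overexpression). Cyp3a11 and Cyp3a16 are lowest on the Ascl2 overexpression array of experiment 2, at -1.89 and -1.80, and Cyp2b10 is highest on the Ascl2null array, at 1.56.

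In experiment 1, P450 genes were lower in the organoids labelled as overexpressing Ascl2 than in VillinCreERT2 organoids for most members, by modest amounts. Of the 40 members measured in all channels, 30 were below 0 on both arrays and 3 above 0 on both, where 28.6% and 30.5% of all genes measured in the same way were. The median of these 40 members was -0.36. That of the members that passed the filter was -0.22, against 0.00 for all genes. With median centring in place of loess the members' median turned to 0.07 on replicate 1, with 23 of 63 members below 0, and was -0.52 on replicate 2. Cyp2b9, an enzyme of the phenobarbital-inducible Cyp2b group, fell by 0.84 ± 0.11 (SE, n = 2, limma adjusted p = 0.0437), and Cyp3a11 and Cyp3a16 had means of -1.21 and -1.11 that did not pass the test. In bulk RNA fewer cells of a type and less RNA per cell cannot be told apart.

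At an adjusted p under 0.05 in limma, 1 of the 63 members was lower and 0 were higher, where the background over all genes was 0.512% lower and 0.298% higher. At an unadjusted p under 0.05, 23 members were lower and 2 higher, against 7.98% lower and 6.89% higher for all genes. Both arrays of experiment 1 lay below both self-self arrays for 29 of 62 members with a value on every array (background 17.9%) and above both for 6 (background 16.2%). At least 2-fold lower in the mean were 2 members (background 0.267%), and 0 were at least 2-fold higher (background 0.194%). Separate cultures are not stated for the replicates, so these p-values measure only the spread between arrays, which may be technical. The call for Cyp2b9 ended without replicate 1 or 2 (adjusted p = 0.293 and 0.488), with median centring (0.918), the scanner's own ratios (0.21), the authors' deposited table (0.133) and the local background as deposited (0.116), while its log2 ratio stayed between -0.87 and -0.73 in these limma fits. Without the self-self array of experiment 3, 17 members passed, as did 8.27% of all genes.

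**Figure D2:**
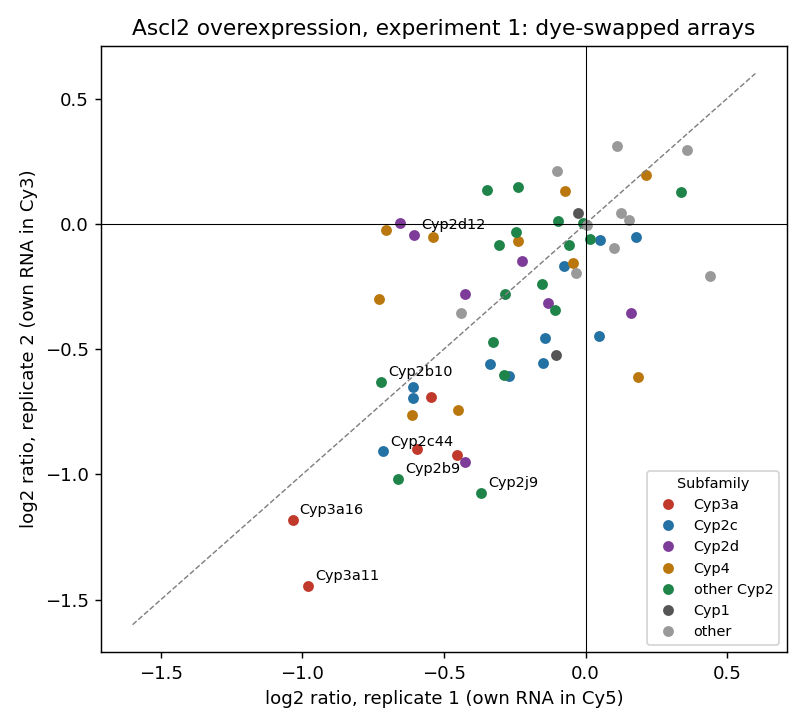
Log2 ratio of each P450 gene that passed the filter on replicate 1 (horizontal, own RNA in Cy5) and on the dye-swapped replicate 2 (vertical, own RNA in Cy3) of experiment 1, coloured by subfamily, with the line of equality dashed. Cyp3a11 and Cyp3a16 lie lowest, at -0.98 and -1.45 and at -1.04 and -1.18, and Cyp2d12 is among the genes low on replicate 1 only, at -0.61 and -0.04.

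The 3 arrays of experiment 2 differed in which P450 genes were low. On the Tcf7l2null array 34 of the 40 fully measured members were below 0, with a median of -0.50. On the Ascl2 overexpression array 33 were below 0, with a median of -0.28. On the Tcf7l2null array with Ascl2 overexpression 15 were below 0, with a median of 0.12. Over the 63 members that passed the filter, 48, 46 and 26 were below 0 on these arrays in the same order. Their medians were -0.19, -0.13 and 0.05. Of all genes that passed the filter, 48.6% to 49.7% were below 0 on these arrays. Cyp3a11 and Cyp3a16 were at least 2-fold lower on each of these arrays.

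At least 2-fold lower were 2 members on the Tcf7l2null array (background 0.481%), 2 with Ascl2 overexpression added (background 1.74%) and 5 on the Ascl2 overexpression array (background 0.753%), where Cyp2c44, Cyp2d10 and Cyp2d34 joined Cyp3a11 and Cyp3a16. At least 2-fold higher were 0 members on all 3 arrays, against backgrounds of 0.35%, 0.994% and 0.962%. The dsGFP self-self array had 0 members at 2-fold (background 0.0105%). These arrays have no replicate, so no test was made, and the split depends on the scaling. On the Tcf7l2null array the scanner's own ratios gave 3 members lower (background 3.86%) and 2 higher (3.8%), the table deposited by the authors gave 4 lower (3.6%) and 0 higher (3.11%), and median centring gave 0 lower (0.105%) and 0 higher (2.66%).

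With both changes these scalings, in the same order, gave 3, 4 and 0 members lower (backgrounds 4.7%, 5.08% and 1.12%) and 7, 7 and 5 higher (5.96%, 5.63% and 2.07%) so that most members past 2-fold there were higher under each of them, but lower with loess. With Ascl2 overexpression alone they gave 8, 7 and 4 lower (3.82%, 3.55% and 0.507%) and 5, 4 and 1 higher (5.24%, 4.65% and 1.81%). The authors' deposited table had a value for 48 to 54 of the 63 members on these arrays.

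When the Ascl2 overexpression arrays of both experiments were fitted with a shared effect, 0 members passed limma's adjusted threshold (background 0.094%). The experiments had different controls. Over all genes the experiment 2 array had correlations of 0.12 and 0.10 with the arrays of experiment 1. Its correlation was 0.61 with the array of both changes and 0.34 with the dsGFP self-self array. A shared effect is thus a mean over arrays that agreed little. Its p-values measure the spread between arrays, which may be technical. The lowest adjusted p among members was 0.0619, reached by Cyp2c55 at -0.72 ± 0.09 (SE, n = 3) and by Cyp4f14 at -0.62 ± 0.07. At an unadjusted p under 0.05, 21 members were lower (background 6.77%) and 0 higher (background 5.99%). The difference between the experiments gave 0 members at the adjusted threshold (background 0.628%), with 6 higher in experiment 2 (background 4.45%) and 4 lower (background 3.89%) at an unadjusted p under 0.05. Experiment 2 enters that difference with 1 array.

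On the Ascl2null array the P450 panel lay on the other side of 0. There 32 of the 40 fully measured members were above 0, with a median of 0.46. Over the 63 members that passed the filter, 46 were above 0, with a median of 0.145, where 49.3% of all genes were below 0. Cyp2b10 (1.56), Cyp2b9 (1.30), Cyp2d12 (1.22) and Cyp4f16 (1.07) were at least 2-fold higher, 4 members in all (background 1.94%), and 0 were at least 2-fold lower (background 1.27%). The scanner's ratios, the authors' deposited table and median centring gave 9, 10 and 2 members higher (backgrounds 4.68%, 5.05% and 1.48%). The self-self array beside it on that slide was itself uneven for this family, from -0.97 for Cyp3a11 to 0.93 for Cyp2d12, although 0 members reached 2-fold there (background 0.0836%). With that array subtracted, 34 of the 40 members were above 0, with a median of 0.34. The share of all genes above 0 after this subtraction was not counted.

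After the subtraction 5 members were at least 2-fold higher (background 1.81%) and 0 lower (background 1.24%). Cyp2b10 and Cyp2b9 were among these at 1.02 and 1.01. Cyp2d12 and Cyp4f16 had 0.29 and 0.44, while Cyp2c65 (1.16), Cyp2s1 (1.15) and Cyp2c66 (1.13) were past 2-fold. Over all genes, replicate 1 of experiment 1 and the Ascl2null array, both with own RNA in Cy5 against VillinCreERT2, had a correlation of -0.31; the labels state the dyes, and their directions were kept. The Ascl2null array had -0.13 with replicate 2, 0.26 with the Ascl2 overexpression array of experiment 2 and 0.41 with the array of both changes. It had 0.31 with the self-self array of its own slide, which holds no difference in RNA. That self-self array had 0.06 with replicate 1 and 0.43 with replicate 2. Genes are not independent replicates.

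**Figure D3:**
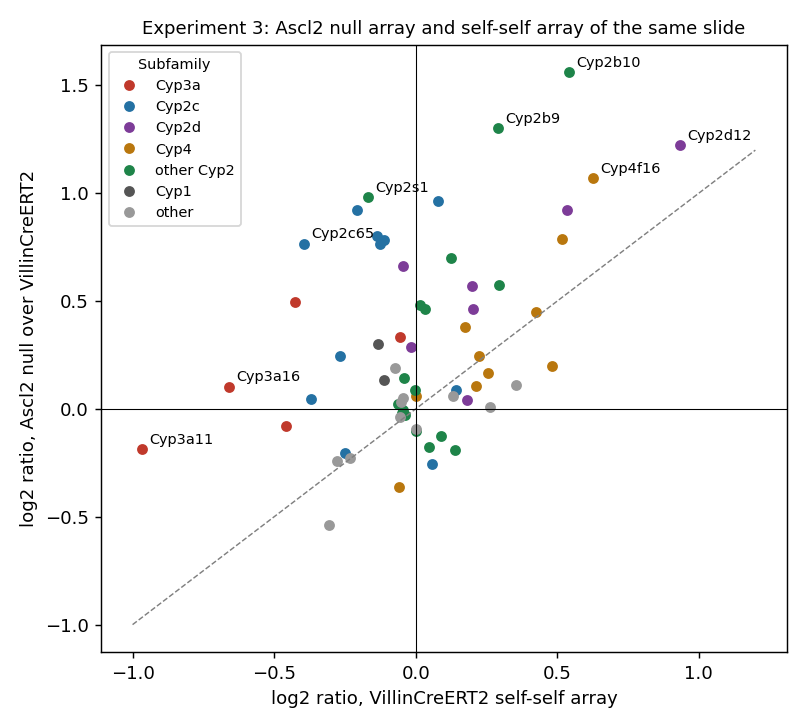
Log2 ratio of each P450 gene that passed the filter on the VillinCreERT2 self-self array (horizontal) and on the Ascl2null array of the same slide (vertical), coloured by subfamily, with the line of equality dashed. Cyp2d12 lies near the line at 0.93 and 1.22, whereas Cyp2b9, at 0.29 and 1.30, and Cyp2c65, at -0.39 and 0.77, lie well above it.

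The Cyp3a subfamily, whose enzymes oxidise a very wide range of drugs, steroids and bile acids, had the lowest values of the panel. Its chief member in mouse liver and intestine is Cyp3a11, a classic Pxr target. The 60-base Cyp3a11 probe spans 1868 bases of the genome (mm9 chr5:146672058-146673925) and therefore crosses at least 1 splice junction of the transcript. It is shown because Cyp3a11 had the lowest ratio of any member on any array:
Cyp3a11 probe: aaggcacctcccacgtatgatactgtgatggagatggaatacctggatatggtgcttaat

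Cyp3a11 had ratios of -0.98 and -1.45 on the arrays of experiment 1, -1.31 on the Tcf7l2null array, -1.42 with Ascl2 overexpression added and -1.89 with Ascl2 overexpression alone in experiment 2. The self-self arrays gave -0.20 and -0.97, and the Ascl2null array -0.19. Both experiment 1 values thus lay below both self-self values, but replicate 1 only just, and on the Ascl2null array Cyp3a11 was near its control and above the self-self array of that slide. The shared overexpression effect was -1.36 ± 0.26 (SE, n = 3, limma adjusted p = 0.131).

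Cyp3a16, known as a fetal and female liver enzyme, followed closely with -1.04 and -1.18 in experiment 1. It had -1.14 on the Tcf7l2null array, -1.19 with Ascl2 overexpression added and -1.80 on the Ascl2 overexpression array. Its self-self values were -0.09 and -0.66 and its Ascl2null value 0.10. The overexpression arrays lay below both self-self arrays, with a shared effect of -1.26 ± 0.19 (limma adjusted p = 0.0895). On the Tcf7l2null array median centring left Cyp3a11 at -0.74 and Cyp3a16 at -0.64, inside 2-fold, and with Ascl2 overexpression added at -0.80 and -0.77.

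Cyp3a25 was milder, at -0.60 and -0.90 in experiment 1, -0.83 on the Tcf7l2null array, -0.33 with Ascl2 overexpression added and -0.95 with Ascl2 overexpression alone. It had -0.33 and -0.43 on the self-self arrays and 0.49 on the Ascl2null array. Cyp3a13, the member best known from the intestine, was the most even of the group on the experiment 2 arrays, between -0.51 and -0.40. It had -0.45 and -0.92 in experiment 1, 0.01 and -0.06 on the self-self arrays and 0.33 on the Ascl2null array, and its shared effect of -0.67 ± 0.09 had an adjusted p of 0.0766 in limma.

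Cyp3a44 was measured in both colours of 7 arrays. Its probes disagreed: the brighter gave -1.07 and -1.15 in experiment 1 and -1.81 with Ascl2 overexpression alone in experiment 2, close to Cyp3a11 and Cyp3a16, and the other, never above background, gave -0.02, -0.23 and -0.01. Cyp3a41a, a close relative whose name falls outside the rule, had -0.72 and -1.05 in experiment 1 and -2.07 with Ascl2 overexpression alone in experiment 2. Of 5632 pairs of probes of different members, the longest run of bases in common was 28, between Cyp2a4 and Cyp2a5, and 16 in the next pair. Whether a probe also captures transcripts of a related gene, within Cyp3a or another subfamily such as Cyp2b or Cyp2d, was not tested.

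As a group, all 5 Cyp3a genes were below 0 in the mean of experiment 1, with a median of -0.75, on the Tcf7l2null array (-0.83), with Ascl2 overexpression added (-0.58) and with Ascl2 overexpression alone (-0.95). All 5 were also below 0 on the self-self array of experiment 3, with a median of -0.46, and 3 of 5 on that of experiment 2 (-0.09); what part that offset has in the ratios was not tested. The medians of the overexpression and Tcf7l2null arrays kept their sign but not their size with median centring, the scanner's ratios and the authors' deposited table, and that on the Ascl2null array was 0.10 with loess and -0.13 with median centring. On the Tcf7l2null array the median ran from -1.14 (table) to -0.33 (median centring), with both changes from -1.15 to -0.36 and with Ascl2 overexpression alone from -1.77 to -0.72. With median centring it was -0.13 on replicate 1 and -1.55 on replicate 2 of experiment 1.

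**Figure D4:**
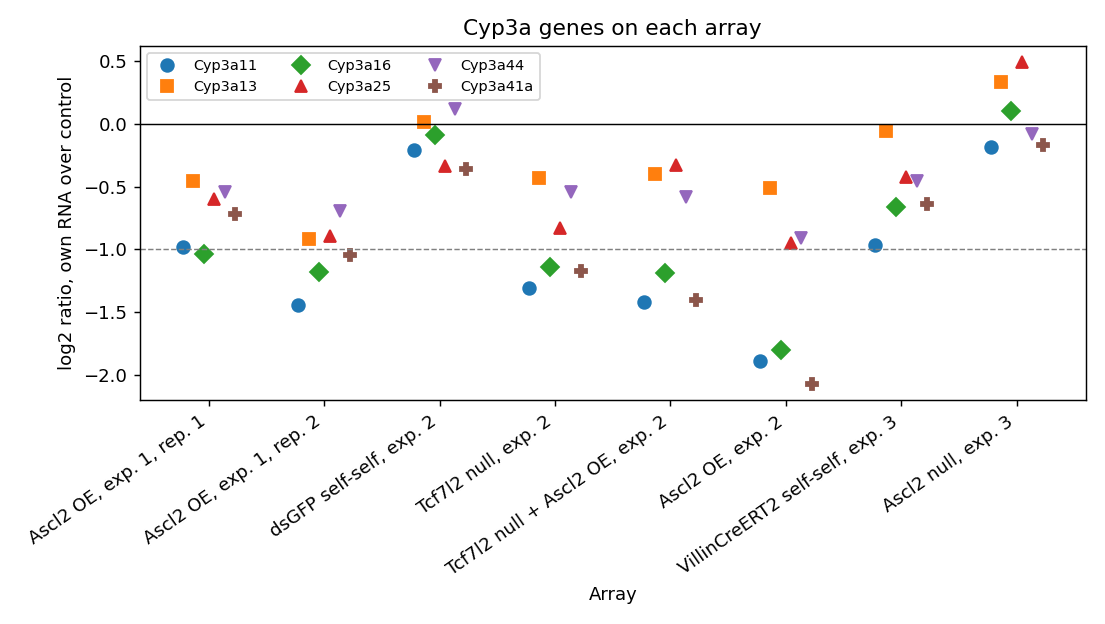
Log2 ratio of own RNA over control (vertical) for the 5 Cyp3a members and Cyp3a41a (symbols) on each array (horizontal); the dashed line marks a 2-fold lower level. Cyp3a11, Cyp3a16 and Cyp3a41a reach -1.89, -1.80 and -2.07 with Ascl2 overexpression alone in experiment 2, and Cyp3a11 is at -0.97 on the VillinCreERT2 self-self array.

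Since Cyp3a11 and Cyp3a16 had such like values, the bases just before their start sites are shown (RefSeq, GRCm38.p6), chr5:145879855-145880104 and chr5:145469741-145469973, both for genes on the minus strand. Capitals mark the nuclear receptor motifs AGGTCA and AGTTCA, the Ahr core GCGTG and the E-box CAGCTG, searched on both strands.
Cyp3a11: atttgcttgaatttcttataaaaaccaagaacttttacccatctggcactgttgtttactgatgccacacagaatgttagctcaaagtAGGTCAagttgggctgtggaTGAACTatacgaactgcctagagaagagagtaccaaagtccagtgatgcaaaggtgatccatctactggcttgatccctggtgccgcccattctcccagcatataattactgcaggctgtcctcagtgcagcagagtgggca
Cyp3a16: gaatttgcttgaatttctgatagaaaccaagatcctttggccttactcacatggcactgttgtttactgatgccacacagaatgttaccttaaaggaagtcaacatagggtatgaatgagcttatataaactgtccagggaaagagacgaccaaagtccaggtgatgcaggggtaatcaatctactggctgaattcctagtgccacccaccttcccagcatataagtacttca

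Aligned over windows of 250 bases, the Cyp3a11 and Cyp3a16 stretches had 82.4% identical bases, against 60.8% to 63.2% between a Cyp3a and a Cyp2b stretch. Of these windows, 233 bases are shown for Cyp3a16 and 191 for Cyp2b9, because the rest lies inside the annotated gene. The Cyp3a11 stretch held 1 AGGTCA and 1 AGTTCA (read on the other strand), and the Cyp3a16 stretch held 0 of the searched motifs. AGGTCA was present before 13 of the 57 P450 genes found in the RefSeq table (22.8%) and before 14.0% of 27025 genes, AGTTCA before 12.3% and 11.9%, GCGTG before 21.1% and 28.0%, and CAGCTG before 17.5% and 12.9%. A match describes letters in the window and not a bound site.

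The Cyp2b group includes the best-known Car targets, and Cyp2b10 and Cyp2b9 had the highest ratios of all members on the Ascl2null array. Cyp2b10, the standard mouse readout of Car activity, was at 1.56 there. It had -0.72 and -0.63 in experiment 1, -0.69 on the Tcf7l2null array, 0.19 with Ascl2 overexpression added and -0.39 with Ascl2 overexpression alone, and -0.23 and 0.54 on the self-self arrays. The experiment 1 values lay below both self-self values and the Ascl2null value above both; the experiment 1 mean of -0.68 ± 0.19 (SE, n = 2) had an adjusted p of 0.191 in limma.

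Cyp2b9 had -0.66 and -1.02 in experiment 1, -0.58 on the Tcf7l2null array, 0.32 with Ascl2 overexpression added and -0.40 with Ascl2 overexpression alone. It was 1.30 on the Ascl2null array and 0.01 and 0.29 on the self-self arrays, so experiment 1 lay below both self-self arrays and the Ascl2null array above them. Its probes, both above background throughout, gave 1.103 and 1.499 on the Ascl2null array. The probe at mm9 chr7:26983484-26983543, with the higher of these values, is shown because this gene alone passed the test in experiment 1:
Cyp2b9 probe: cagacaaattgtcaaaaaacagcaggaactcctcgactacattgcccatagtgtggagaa

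Cyp2b13, a further Cyp2b gene, depended on the probe. The brighter gave -0.67 and -0.69 in experiment 1 and 1.31 on the Ascl2null array. The other, above background in both colours of 6 arrays, gave 0.02, -0.26 and -0.16. The brighter probe also gave 0.52 on the self-self array of experiment 3, where Cyp2b10 had 0.54. Whether Cyp2b probes also capture transcripts of other Cyp2b genes was not tested. Cyp2b19 and Cyp2b23, not above background throughout, had 0.02 and -0.01 on the Ascl2null array. Upstream bases of Cyp2b9 and Cyp2b10, the Cyp2b genes with the highest Ascl2null values, are shown for the same motifs, outside the annotated gene (chr7:26173159-26173349 and chr7:25897408-25897657, plus strand). Cyp2b9 held 1 AGGTCA, and Cyp2b10 held 2 GCGTG and 1 CAGCTG; their aligned 250-base stretches were 77.2% identical.
Cyp2b9: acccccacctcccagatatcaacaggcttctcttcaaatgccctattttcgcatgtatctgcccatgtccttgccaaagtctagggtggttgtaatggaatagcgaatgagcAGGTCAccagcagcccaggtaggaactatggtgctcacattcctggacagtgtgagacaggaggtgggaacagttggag
Cyp2b10: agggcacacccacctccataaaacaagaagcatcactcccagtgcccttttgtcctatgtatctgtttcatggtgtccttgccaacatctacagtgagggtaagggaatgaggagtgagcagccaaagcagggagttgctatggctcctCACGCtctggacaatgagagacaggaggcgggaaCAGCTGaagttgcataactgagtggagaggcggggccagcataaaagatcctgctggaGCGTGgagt

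Cyp2c enzymes oxidise drugs and make epoxides from arachidonic acid. In experiment 1, 10 of 11 had a mean below 0, where 49.5% of all genes did. On the Ascl2null array 9 of 11 were above 0, where 49.3% of all genes were below 0. Cyp2c44, named Cyp2c23 in RefSeq, is an arachidonic acid epoxygenase. It had -0.72 and -0.91 in experiment 1, -0.86 on the Tcf7l2null array, -0.52 with Ascl2 overexpression added and -1.46 with Ascl2 overexpression alone. It was at -0.21 on the Ascl2null array and at 0.09 and -0.25 on the self-self arrays. All 5 arrays of Ascl2 overexpression or Tcf7l2 loss were thus below both self-self arrays, and the shared overexpression effect was -1 ± 0.155 (SE, n = 3, limma adjusted p = 0.0977).

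Cyp2c55, an enzyme of the intestinal epithelium, had -0.61 and -0.70 in experiment 1, -0.68, -0.26 and -0.88 on the Tcf7l2null array, with both changes and with Ascl2 overexpression alone, and 0.76 on the Ascl2null array. Its self-self values were 0.04 and -0.13, above every overexpression and Tcf7l2null array and below the Ascl2null array. Cyp2c65, also intestinal, had -0.61 and -0.65 in experiment 1 but 0.34 with Ascl2 overexpression alone in experiment 2 and 0.59 with both changes. Its difference between the experiments was 1.04 ± 0.27 (limma adjusted p = 0.306).

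Cyp2c70 makes muricholic acids, the rodent bile acids, and went its own way. It had 0.18 and -0.05 in experiment 1, 0.50 on the Tcf7l2null array, 0.995 with Ascl2 overexpression added, 0.82 with Ascl2 overexpression alone and 0.96 on the Ascl2null array, with 0.10 and 0.08 on the self-self arrays. Every single array of experiments 2 and 3 was above both self-self arrays, and experiment 1 straddled them. Cyp2c29, Cyp2c40 and Cyp2c66 had 0.78, 0.80 and 0.92 on the Ascl2null array and between -0.61 and -0.15 in experiment 1. Cyp2c37 and Cyp2c39 ranged from -0.46 to 0.41 over the non-self arrays.

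All 11 Cyp2c genes passed the filter. Their median was -0.35 in experiment 1 and 0.76 on the Ascl2null array. With median centring the Cyp2c median turned to 0.49 on replicate 1 of experiment 1, where the median of all genes was 0.32, and to 0.05 from -0.13 on the Ascl2 overexpression array of experiment 2.

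Cyp2d genes are a large mouse cluster related to the human drug-oxidising CYP2D6. Cyp2d34 had the lowest ratio of the group on the experiment 2 array of Ascl2 overexpression, -1.32. It had -0.72 on the Tcf7l2null array, -0.68 with both changes and -0.13 and -0.32 in experiment 1, against 0.30 and -0.04 on the self-self arrays and 0.67 on the Ascl2null array. The experiments differed by -1.21 ± 0.21 (SE, limma adjusted p = 0.12), and by -1.26 with an adjusted p of 0.0265 without the self-self array of experiment 3.

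Cyp2d10 had -1.11 on the Ascl2 overexpression array of experiment 2, -0.57 on the Tcf7l2null array, -0.54 with both changes, -0.23 and -0.15 in experiment 1 and 0.46 on the Ascl2null array. Its self-self values were -0.06 and 0.20. Its probes did not read alike on 2 of these arrays: 1 gave -1.46 with both changes and -1.80 with Ascl2 overexpression alone, and the other 0.38 and -0.42, so the gene mean stands for neither. With its brightest probe the difference between experiments was -0.11, against -0.94 for the mean of its probes.

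Cyp2d12 had -0.61 and -0.04 in experiment 1, -0.73 on the Tcf7l2null array, 0.41 with both changes, -0.42 with Ascl2 overexpression alone and 1.22 on the Ascl2null array. Its self-self values of -0.29 and 0.93 spanned most of that range; the Ascl2null value lay above both, and the Tcf7l2null, overexpression-alone and replicate 1 values below both. Cyp2d9 was similar, with 0.92 on the Ascl2null array and 0.54 on its self-self array. Cyp2d26 had -0.42 and -0.95 in experiment 1, -0.66 on the Tcf7l2null array and 0.89 with both changes. The probe mean of Cyp2d22 ranged from -0.43 to 0.57. Its probe above background throughout gave -0.79 on the Tcf7l2null array and 1.204 on the Ascl2null array, beside 0.699 on the self-self array of experiment 3. The other Cyp2d22 probes, not above background throughout, gave 0.21 and 0.289 on the Ascl2null array. Over the 7 Cyp2d genes the median was -0.32 in experiment 1, -0.66 on the Tcf7l2null array and 0.57 on the Ascl2null array; median centring turned that of replicate 1 from -0.42 to 0.21.

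Cyp4 enzymes add a hydroxyl group to the end of fatty acids and of leukotrienes. Cyp4f16 had -0.73 and -0.30 in experiment 1, -0.68 on the Tcf7l2null array, 0.32 with both changes and -0.08 with Ascl2 overexpression alone. It was at 1.07 on the Ascl2null array and at -0.11 and 0.63 on the self-self arrays. Cyp4f13 and Cyp4f18 had 0.79 and 0.45 on the Ascl2null array beside 0.52 and 0.42 on its self-self array.

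Cyp4f14, which inactivates leukotriene B4, had the lowest adjusted p of the Cyp4 genes for the shared effect. It had -0.45 and -0.74 in experiment 1, -0.50 on the Tcf7l2null array, 0.35 with both changes, -0.58 with Ascl2 overexpression alone and 0.06 on the Ascl2null array, with 0.09 and 0.00 on the self-self arrays. Cyp4b1 had -0.61 and -0.76 in experiment 1, with 0.48 and 0.20 on the arrays of experiment 3. Cyp4v3 ranged from -0.63 to 0.19 and the mean of the 4 probes of Cyp4a10, a Ppara target, from -0.24 to 0.38. The 2 Cyp4a10 probes above background throughout disagreed. With Ascl2 overexpression alone they gave 0.38 and -0.865, and with both changes 0.67 and -0.335. Of the 10 Cyp4 genes that passed the filter, 8 were below 0 in the mean of experiment 1, with a median of -0.26; median centring turned the median of replicate 1 from -0.34 to 0.08 and that of the Ascl2 overexpression array of experiment 2 from -0.14 to 0.01.

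Of the Cyp2j group, Cyp2j9 had -0.37 and -1.07 in experiment 1 and -0.50 on the Tcf7l2null array. It had 0.92 with both changes, 0.08 with Ascl2 overexpression alone and 0.48 on the Ascl2null array. Its self-self values were -0.06 and 0.01, so both experiment 1 arrays lay below them, replicate 2 by much more. Cyp2j6 had -0.29 and -0.60 in experiment 1 and -0.67 on the Tcf7l2null array. Cyp2s1, an epithelial enzyme induced through Ahr, had 0.98 on the Ascl2null array; its brighter probe gave 1.997 there and the other, never above background, -0.03. On the self-self array of that slide the brighter probe gave -0.03. This gene was singled out after its values were seen.

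Fatty acid hydroxylase Cyp2u1 ranged from -0.58 to 0.13, and the probe means of Cyp2j13 and Cyp2a4 from -0.31 to 0.16. The Cyp2j13 probe above background throughout gave -0.505 on the Tcf7l2null array and 0.555 on the Ascl2null array. That of Cyp2a4 gave 0.43 on the Ascl2null array. The families above Cyp4, which serve sterol, steroid, vitamin D and retinoid metabolism, stayed nearer 0. Over their 11 genes that passed the filter, the median ran from -0.07 to 0.10 across the non-self arrays. On these arrays 0 genes reached 2-fold with loess. The scanner's ratios and the authors' deposited table each put 1 of them 2-fold lower with both changes and 1 higher with Ascl2 overexpression alone, and the sign of the median turned with the scaling on several arrays. Only 5 of the 16 genes of these families were above background throughout. Cyp39a1, an oxysterol hydroxylase, had 0.36 and 0.30 in experiment 1 and -0.54 on the Ascl2null array. Self-self values of Cyp39a1 were -0.20 and -0.31, and subtracting that of the Ascl2null slide left -0.23 there. Cyp46a1, which removes cholesterol from the brain, had -0.44 and -0.36 in experiment 1 and 0.19 on the Ascl2null array. Self-self values of Cyp46a1 were 0.015 and -0.07. Cyp27b1, which activates vitamin D, ranged only from -0.09 to 0.13.

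**Figure D5:**
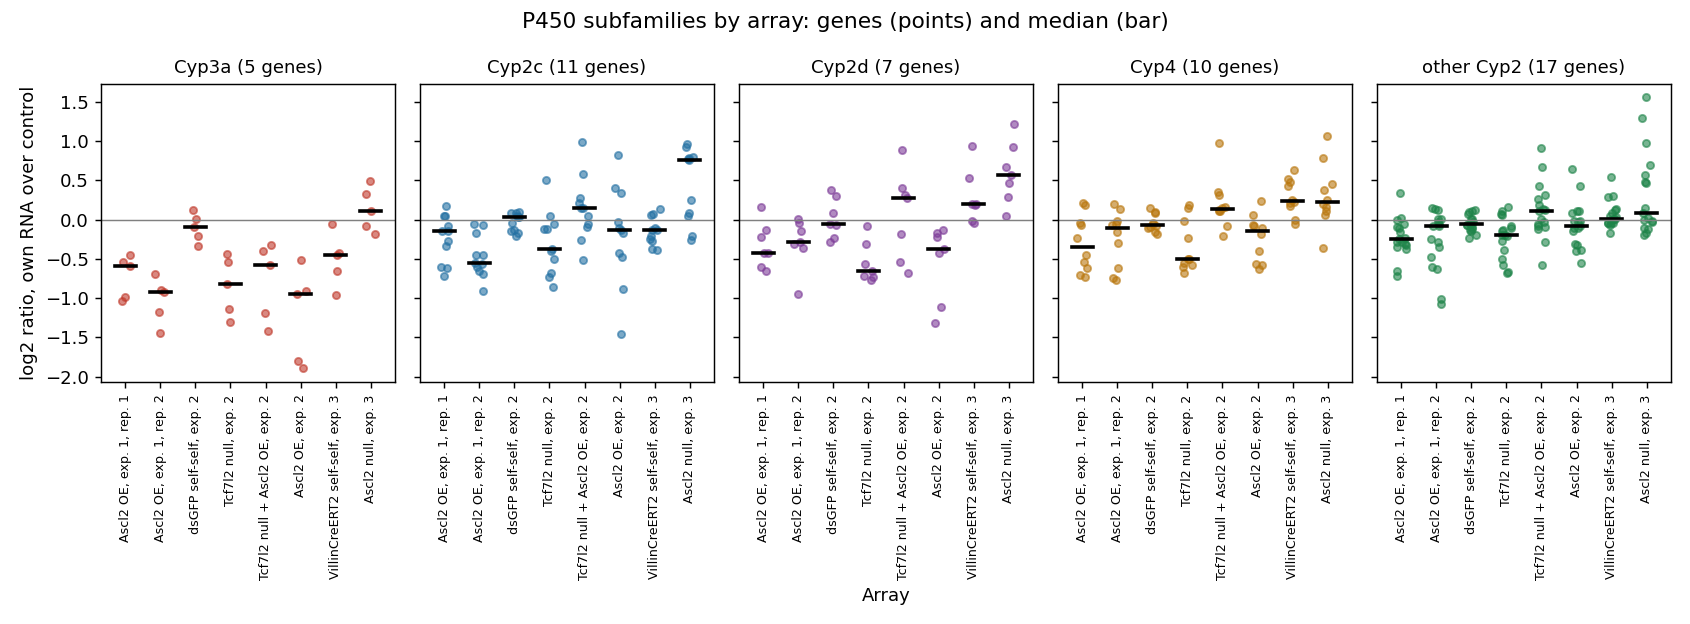
Log2 ratio of own RNA over control (vertical) of the genes that passed the filter in 5 groups of P450 genes (panels) on each array (horizontal); points are genes and bars are medians. The Cyp3a median lies below 0 on all arrays of Ascl2 overexpression or Tcf7l2 loss, and the Cyp2c median is highest on the Ascl2null array, at 0.76.

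The partners that P450 enzymes need were also measured. Of 10 redox and haem genes listed for this purpose, 8 were below 0 in the mean of experiment 1, with a median of -0.42, and 9 were above 0 on the Ascl2null array, with a median of 0.46. Por, the reductase that serves all P450 enzymes of the endoplasmic reticulum, had -0.26 and -0.58 in experiment 1, -0.57 on the Tcf7l2null array, -0.31 with both changes and -1.08 with Ascl2 overexpression alone. Its self-self values were 0.13 and 0.07. Cyb5r3, the cytochrome b5 reductase, had 1.01 on the Ascl2null array and 0.41 on its self-self array. For Por in experiment 1 limma gave an adjusted p of 0.113. In limma 0 of the 10 passed in experiment 1 or for the shared effect.

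Of 20 transcription factors known to act on P450 genes, 18 passed the filter and 0 passed the test in experiment 1. Their median was -0.26 in experiment 1 and 0.32 on the Ascl2null array, where 17 of 18 were above 0. Vdr, the vitamin D receptor, had 1.13 on the Ascl2null array, Cebpa 1.05 and the intestinal factor Cdx2 -1.44, beside 0.23, 0.46 and 0.33 on the self-self array of experiment 3. Car and Pxr were named for their known targets, with their values seen. Car (Nr1i3) had -0.71 and -0.42 in experiment 1 and -0.73 on the Tcf7l2null array. Its ratios were 0.49 with both changes, -0.25 with Ascl2 overexpression alone and 0.33 on the Ascl2null array. Pxr (Nr1i2) had -0.74 and 0.14 in experiment 1 and between 0.08 and 0.40 on the single non-self arrays. What part these regulators have in the P450 values was not tested.

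Markers of absorptive cells lay mostly on the same side of 0 as the P450 medians. Of 15 enterocyte markers, 15 were below 0 in the mean of experiment 1 with a median of -0.63, and Fabp1, Fabp2, Lct and Rbp2 fell there in limma at an adjusted p under 0.05. All 14 with a value on the Tcf7l2null array were below 0, with a median of -0.63. With Ascl2 overexpression alone 12 of 15 were below 0 (median -0.45) and with both changes 7 of 15 (median 0.10), while 12 of 15 were above 0 on the Ascl2null array (median 0.40). The part of absorptive cell content in the P450 values was not tested.

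Stem cell markers had medians of 0.70 in experiment 1, 0.60 on the Tcf7l2null array, -0.90 with Ascl2 overexpression alone, -1.79 with both changes and -0.65 on the Ascl2null array. Enteroendocrine markers, of which 9 of 10 passed the filter, lay further from 0 than the enterocyte markers in experiment 1 and on the Ascl2null array. Their median was -0.95 in experiment 1, where Gcg, Gip, Cck, Sst and Nts fell in limma at an adjusted p under 0.05, and 2.74 on the Ascl2null array. It was 0.14 on the Tcf7l2null array, 0.49 with both changes and 0.11 with Ascl2 overexpression alone.

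The 8 Paneth cell markers had medians of 0.13 in experiment 1, -0.30 on the Tcf7l2null array, -1.69 with both changes, -1.73 with Ascl2 overexpression alone and 0.34 on the Ascl2null array. The 7 tuft cell markers had medians of 1.04 with both changes and 0.755 with Ascl2 overexpression alone, and between -0.07 and 0.24 elsewhere among the non-self conditions. Goblet cell medians ran from -0.09 to 0.24 across these conditions, with experiment 1 taken as the mean of its arrays. The cell cycle median was -1.77 with both changes and between -0.25 and 0.57 in the other conditions. The part of these cell types in the P450 values was not tested. Liver parenchyma markers, of which 6 of 9 on the array passed the filter, had medians from -0.03 to 0.13 on the non-self arrays. Mesenchyme and immune markers had medians from -0.11 to 0.09.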

How the data were processed

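The files hold spot intensities of 8 Agilent 2-colour arrays, deposited as made with Feature Extraction 10.5.1.1 per the file headers, with a log10 ratio of Cy5 over Cy3 after the software's own background and dye correction, also deposited by the authors. A value table deposited by the authors gives log2 ratios whose scale and direction are not stated. Set against the scanner ratios it matched them as Cy5 over Cy3 in experiments 2 and 3 (r = 1) and was turned for replicate 2 of experiment 1 (r = -0.85, against 0.86 for replicate 1), and its medians per array ran from -0.01 to 0.03. Gene names come from the experiment 1 files and reach the others by the same probe order. Labelling used 500 ng RNA, per the labels' protocols.

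Median spot and local background intensities were corrected with normexp (offset 50) and normalised by loess within each array (R 4.3.3, limma 3.58.1). A smear gave 48 spots of replicate 2 of experiment 1 a background far above their own signal, so on every array the 1110 to 1903 spots with a flagged background took the array's median background; this was chosen after seeing the data. Control and outlier spots were left out, spots of a probe and then probes of a gene were averaged, and replicate 2 was turned. Loess centres each array, so a change of all genes at once cannot be seen.

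Limma models over all 8 arrays held a dye term and an effect per condition. The overexpression effect was either shared by 3 arrays (3 residual degrees of freedom) or separate for each experiment (2). Tests were two-sided and adjusted by Benjamini-Hochberg over every gene tested. The fits were tested on simulated data with changes of at least 2-fold put in. Those of the shared and the experiment 1 effect recovered most of these changes. Smaller changes, such as most of the P450 ratios, were not simulated. That of the difference between experiments recovered none, so a lack of calls in that difference says little. Conditions with 1 array have no test. The slide is the experiment, so slide and experiment cannot be told apart. Genes with full values were those above background in both channels of all 8 arrays and at least 2-fold on an array that was not self-self, with every such Cyp3a, Cyp2c, Cyp2d and Cyp4 gene beside them; other genes were named to illustrate a group, some after their values were seen. The members and lists were chosen with earlier results of these data known. Probe positions are in mm9, as the files annotate them, and exons were not analysed here. By transcript accession all members but Cyp2c44 kept their name in RefSeq where they matched.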

Additional observations from a re-analysis of the deposited data

How the results depend on the processing

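No paired analysis was possible because replicate numbers exist in experiment 1 alone, whose arrays are not compared with same-numbered arrays of another group. The test counts over all genes depended on the processing. The single P450 call, Cyp2b9 in experiment 1, was lost under the settings named with it above. Without a dye term 6 of 63 members passed in experiment 1 and 5 for the shared effect, where 543 and 183 of 19141 genes did. Among them were Cyp2c44 and Cyp3a16 in experiment 1 (limma adjusted p = 0.0176 and 0.0331) and for the shared effect (0.0262 and 0.0336). With no filter 3 and 2 of 75 members passed, where 269 and 47 genes did in all. For the shared overexpression effect (18 genes) median centring, the scanner ratios, the authors' table, the deposited local background, a dye term per slide and leaving out the experiment 3 self-self array each gave 0. The brightest probe gave 11, no filter 47 and no dye term 183, and leaving out an overexpression array gave 0 to 155. For experiment 1 (155 genes) median centring gave 1, the scanner ratios 0, the table of the authors gave 16, the deposited local background 0, no filter 269, no dye term 543, no experiment 3 self-self array 1583, and leaving out a replicate 0 to 1. For the difference between experiments (120 genes) these were 0 with median centring, 54 with the deposited local background, 302 with no dye term, 350 without the experiment 3 self-self array and 0 to 63 without a replicate. The deposited local background and the leaving out of the self-self array were added after seeing the data.

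P450 genes at 2-fold in either direction on the Tcf7l2null array (2) were 0 with median centring (2.76% of all genes), 5 with scanner ratios (7.65%), 4 with the authors' table (6.7%) and 4 with the self-self array subtracted (0.817%). With both changes (2, both lower) they were 5 under median centring, all higher (3.19%), 10 with scanner ratios (10.7%) and 11 with the table (10.7%). With Ascl2 overexpression alone (5) they were 13 with scanner ratios (9.07%) and 11 with the table (8.2%), and on the Ascl2null array (4) 2, 9 and 10 (3.48%, 9.12% and 9.67%). Median centring moved the median of all genes to 0.32 and -0.18 on the arrays of experiment 1 and to 0.10 on the Tcf7l2null array. The causes were not tested. Dim probes are a limit for all but 40 of the 75 members.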

Other observations

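Some dim P450 genes were detected in a single colour. Cyp1a1, the standard readout of Ahr, was above background in 3 of 16 channels. Its own RNA alone was above background on the Ascl2 overexpression array of experiment 2, at least 1.66-fold higher than the control, and on the Tcf7l2null array with Ascl2 overexpression, at least 1.54-fold higher. In experiment 1 the control alone was above background, on 1 of 2 arrays, with at least 1.19-fold lower own RNA. Ahr itself had 0.25, 0.70 and -0.15 in these conditions. Cyp2r1, which starts vitamin D activation in the liver, was above background in own RNA alone on the same 2 arrays of experiment 2, at least 1.35-fold and 1.6-fold higher, and on the Ascl2null array, at least 1.45-fold higher. Cyp2j5 was at least 1.53-fold and 1.24-fold higher on those 2 arrays. These genes were picked after their values were seen, and no bound reached 2-fold.

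Among P450 genes outside the name rule, Cyp51 of cholesterol synthesis had 0.71 on the Ascl2null array and between -0.23 and 0.23 on the other non-self arrays. The pseudogenes Cyp2a21-ps, Cyp2j11-ps and Cyp4f41-ps lay between -0.27 and 0.26 on the non-self arrays.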
